A study of Rattus norvegicus with 11 samples.

Results

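Transcript levels of 10 enzymes of mitochondrial beta-oxidation were described in the heart ventricle of old and young rats. The genes were Acadvl, Acadl, Acadm, Acads, Hadha, Hadhb, Acaa2, Eci1, Decr1 and Ech1. They were found as every probe set whose gene symbol in the platform annotation was one of these names, which gave 17 of the 8799 probe sets on the array. A probe set is a group of short probes that is read as 1 value. The study hybridised total RNA of heart ventricle to 11 arrays of 1 expression platform. The animals were Fischer-344 rats, which are inbred and often used to study ageing. Of the arrays, 6 came from rats aged 22 months (old) and 5 from rats aged 4 months (young), and its single comparison asks which transcripts differ with age. No treatment, sex or genotype beyond the strain is named in the labels. They do not say that an array stands for 1 animal, so p-values here measure the spread between arrays, which may be technical. Differences are old minus young on the log2 scale, an SE follows a difference, and the group means carry the SD over 6 old or 5 young arrays.

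Fatty acids are the main fuel of the adult heart. In the mitochondrial matrix, beta-oxidation shortens an acyl-CoA chain by repeating a cycle of dehydrogenation, hydration, a second dehydrogenation and thiolysis, and each turn releases acetyl-CoA. The first step is shared out by chain length among very long, long, medium and short chain acyl-CoA dehydrogenases, encoded by Acadvl, Acadl, Acadm and Acads. For long chains the later steps are carried out by the trifunctional protein, a complex of alpha subunits from Hadha and beta subunits from Hadhb. Acaa2 encodes a thiolase of the matrix for shorter chains. Eci1, Decr1 and Ech1 encode auxiliary enzymes that move or reduce double bonds, so that unsaturated fatty acids can enter the cycle.

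Promoter windows of 250 bases before and 50 after the start site were found in RefSeq (build GRCr8) for 6 of the 10 genes: Acadvl, Acadm, Acads, Hadha, Hadhb and Eci1. Hadha and Hadhb lie head to head, with 300 bases between their start sites, so their windows share 200 bases. The Hadha window, chr6:31907551-31907850 on the plus strand, is shown because these partner genes share most of it. Capitals mark the bases it shares with the Hadhb window, chr6:31907451-31907750 on the minus strand. The windows of Acadvl, chr10:55236656-55236955 on the minus strand, and Acads, chr12:47154083-47154382 on the plus strand, belong to the dehydrogenases with the smallest p. In Acadvl, capitals mark the letters AGGTCA, a half-site of nuclear receptors such as the PPARs. In Acads, capitals mark the GC box GGGCGG, which here reads on the other strand. Each window is written 5′ to 3′ on the strand of its gene.
Hadha: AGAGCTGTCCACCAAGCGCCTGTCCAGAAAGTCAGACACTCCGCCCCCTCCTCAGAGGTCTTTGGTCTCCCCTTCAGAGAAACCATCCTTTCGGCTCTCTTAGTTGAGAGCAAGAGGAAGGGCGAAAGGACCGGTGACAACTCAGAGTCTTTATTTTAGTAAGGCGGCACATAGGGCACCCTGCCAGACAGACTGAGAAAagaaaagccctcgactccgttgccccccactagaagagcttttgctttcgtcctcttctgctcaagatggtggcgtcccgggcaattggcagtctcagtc
Acadvl: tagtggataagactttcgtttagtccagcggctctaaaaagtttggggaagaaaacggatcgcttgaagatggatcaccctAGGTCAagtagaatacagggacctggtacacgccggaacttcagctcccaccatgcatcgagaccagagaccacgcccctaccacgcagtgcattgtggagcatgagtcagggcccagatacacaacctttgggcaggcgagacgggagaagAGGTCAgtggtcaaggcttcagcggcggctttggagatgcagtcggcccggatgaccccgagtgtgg
Acads: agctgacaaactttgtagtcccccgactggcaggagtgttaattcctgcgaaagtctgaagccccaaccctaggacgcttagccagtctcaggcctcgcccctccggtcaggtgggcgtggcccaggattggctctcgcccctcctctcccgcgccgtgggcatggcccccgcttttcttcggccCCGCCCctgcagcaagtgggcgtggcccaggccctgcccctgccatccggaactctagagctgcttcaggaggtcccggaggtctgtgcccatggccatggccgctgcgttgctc
Searched on both strands, AGGTCA was found in 3 of the 6 windows (Acadvl, Hadhb and Eci1) and in 16.2% of 33469 windows of the same length. Acadvl held it at -169 to -164 and at -17 to -12 from the start site. GGGCGG was found in 5 of the 6 windows, all but that of Acadvl, and in 33.1% of all windows. The only match in the Hadha window, at -210 to -205, lies in the shared bases and is the same site as the Hadhb match at -96 to -91, so that site is counted for both windows. The Acads match lay at -65 to -60. Longer motifs that contain AGGTCA were found in 0 of the 6. They were the direct repeat of AGGTCA with 1 base between the copies (DR1), the element bound by PPARs, present in 0.0538% of all windows, and TCAAGGTCA, bound by estrogen-related receptors, present in 0.433%. Motifs this rare are mostly missing from any 6 windows, so 0 of 6 does not show a lack of such elements. All matches given here describe letters in a window and do not show binding.

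The arrays differed in ways that touch the results below. Bacterial spike-in transcripts, added to every sample, were bright on old replicates 3 to 6 (mean log2 signal 13.19 to 15.24). They were less bright on young replicate 4 (11.97), which is counted with the bright arrays. On the other 6 arrays they were dim, at 9.55 to 10.20. The 3' over 5' log2 ratio of the GAPDH control was 3.39 and 4.09 on old replicates 3 and 4 and at most 0.77 elsewhere. Spike-in brightness thus overlaps strongly with age, and values within the bright and the dim arrays are given beside the pooled ones. Values within the bright arrays rest on 1 young array, dimmer than each bright old one, so they are not matched for brightness. All 8 cardiac muscle markers on the array passed the filter on dim probe sets, and 4 were higher and 4 lower in old. They ran from -0.77 for Ryr2, the calcium release channel, to 0.42 for Actc1, cardiac actin, and 0 passed the test. Values for markers of other cell types stand after the results.

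After adjustment over the whole table, none of these enzymes passed the test, while the values lay mostly on one side. In the old arrays 9 of the 10 genes were lower, with a median difference of -0.41 on the log2 scale, where a gene is represented by its brightest probe set. Over all 3206 genes tested, 50.3% were lower in old, and the median difference was -0.01. These genes were not matched to the 10 for brightness. The intensity exceeded by the top 2% of probe sets was 4994 to 8464 on old arrays and 7201 to 9285 on young ones. After quantile normalization, which gives the arrays a common spread of values, 8 of the 10 genes were lower. Whether bright probe sets in general were lower to the same degree was not tested. Of the 17 probe sets, 15 were bright enough to be tested, at least 1 for every gene, and 13 of these 15 were lower in old, beside 50.6% of all probe sets tested. The 2 under the filter, of Acadl and Eci1, were higher in old, by 0.80 and 0.34. In limma, 0 of the 15 passed an adjusted p of 0.05, and 0% of all 5244 tested did. The adjusted p of the 15 ran from 0.56 to 0.984. In simulated data the fit found 8% of 2-fold changes, so 0 passing does not show equal levels. At an unadjusted p under 0.05 there were 3 of the 10 genes, Acads, Acadvl and Hadha, all lower in old, against 3.68% of all genes lower at that level. For the same 3 genes every old array lay under the young mean, which held for 4.62% of all genes. The members were chosen when the lower values of these 3 were already known, so this count is a description. As the RNA came from whole tissue, fewer heart muscle cells and less RNA per cell cannot be told apart.

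**Figure D1:**
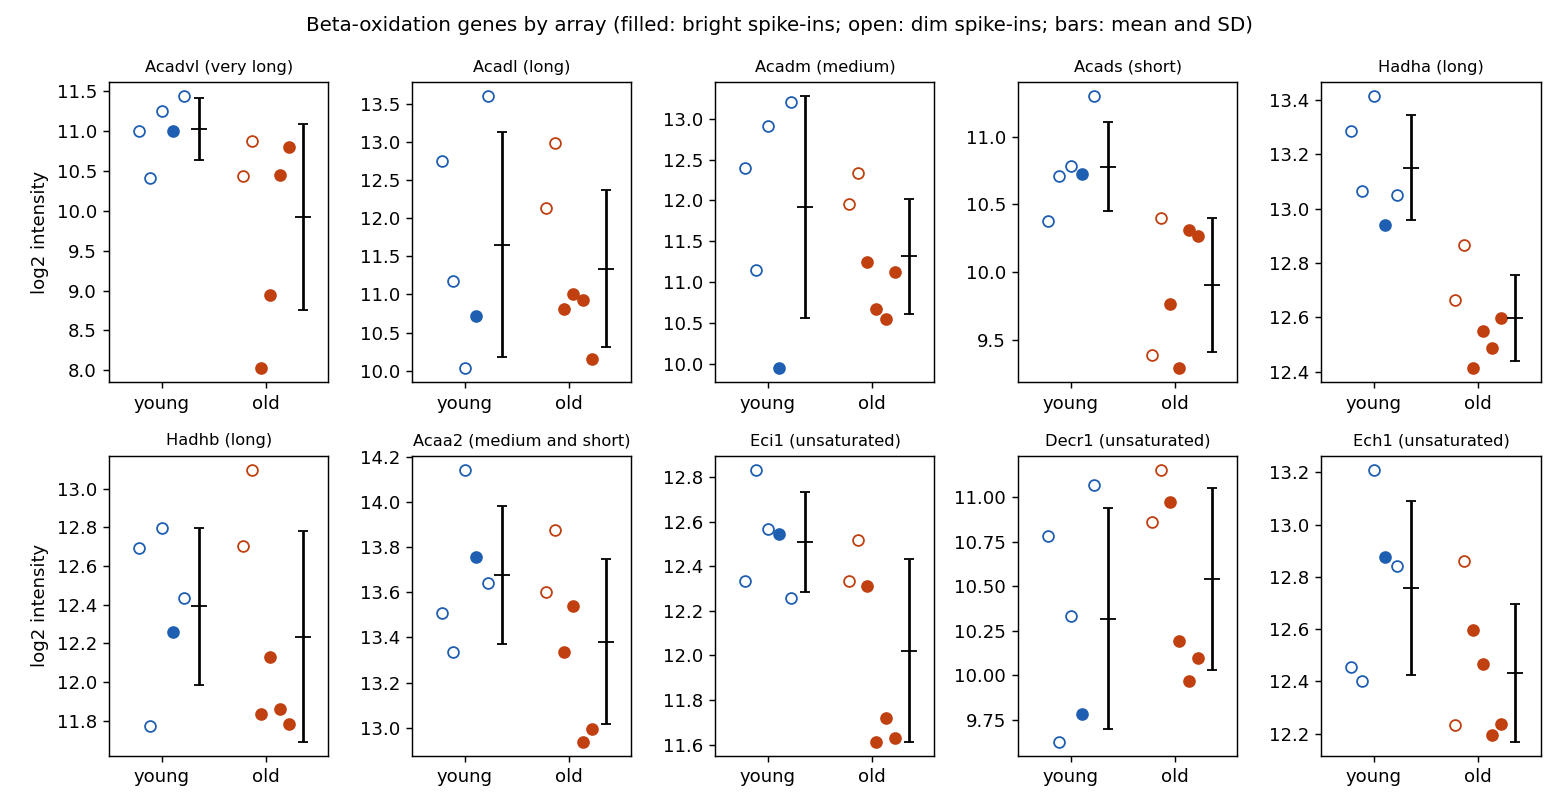
Log2 intensity of the 10 genes on each array, young in blue and old in orange, with the mean and SD beside each group and each panel on its own axis. Filled points are arrays with bright spike-ins and open points those with dim ones. For Hadha all 6 old arrays lie below all 5 young arrays, and in the other panels the groups overlap.

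Among the dehydrogenases, Acadvl and Acads, at the ends of the range of chain length, had the largest differences over all arrays. Without old replicates 3 and 4, Acadvl (-0.38) no longer lay beyond Acadm (-0.43). Acadvl (D30647_at), the enzyme for very long chains, read 11.0003, 10.41, 11.26, 11.0013 and 11.44 in the young arrays. In the old arrays its lowest, median and highest log2 intensities were 8.03, 10.44 and 10.88. The groups overlapped only because young replicate 2, at 10.41, fell among the old arrays. Old averaged 9.92 ± 1.16 and young 11.02 ± 0.39, so the old level was 46.6% of the young one. The difference was -1.10 ± 0.46 (SE, limma unadjusted p = 0.0276, adjusted p = 0.572). The old values were lowest on replicates 3 and 4, at 8.03 and 8.94, which are the arrays of high GAPDH ratio, and without these the difference was -0.38. Without old replicate 3 alone it was -0.72. It was -0.37 in the dim arrays and -1.45 in the bright ones.

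Acads (J05030_at), the enzyme for short chains, had the smallest p of the 10 genes. The young arrays read 10.38, 10.71, 10.78, 10.72 and 11.30, while the old ones ran from 9.29 through a median of 10.01 to 10.40. Only old replicate 2, at 10.40, reached the lowest young array, at 10.38. Old averaged 9.90 ± 0.49 and young 10.78 ± 0.33, with the old level at 54.5% of young. The difference was -0.88 ± 0.33 (SE, limma unadjusted p = 0.0151, adjusted p = 0.56). It was -0.90 within the dim arrays, -0.82 within the bright arrays and -0.69 without old replicates 3 and 4.

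Acadl and Acadm, for long and medium chains, varied among the young arrays by more than the ages differed. Acadl (J05029_s_at) read 12.74, 11.17, 10.03, 10.72 and 13.60 in young and ran from 10.15 through 10.97 to 12.99 in old. The difference of -0.32 ± 0.57 (SE, limma adjusted p = 0.907) turned to 0.17 without young replicate 5, the highest young array, and was -0.72 without young replicate 3. It was 0.67 in the dim arrays and 0.0081 in the bright ones. A second Acadl probe set, rc_AI639522_at, did not pass the filter and lay at the floor of the scale on 4 of 5 young and 3 of 6 old arrays. Acadm (J02791_at) read 12.39, 11.15, 12.91, 9.95 and 13.21 in young, with old values of 10.55, 11.19 and 12.33 as lowest, median and highest. Young replicate 4, the only young array with bright spike-ins, was the lowest of all 11. The difference was -0.61 ± 0.50 (SE, limma adjusted p = 0.794), -0.27 within the dim arrays and 0.95 within the bright ones. Without young replicate 4 it was -1.10, and without young replicate 5 it was -0.29.

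**Figure D2:**
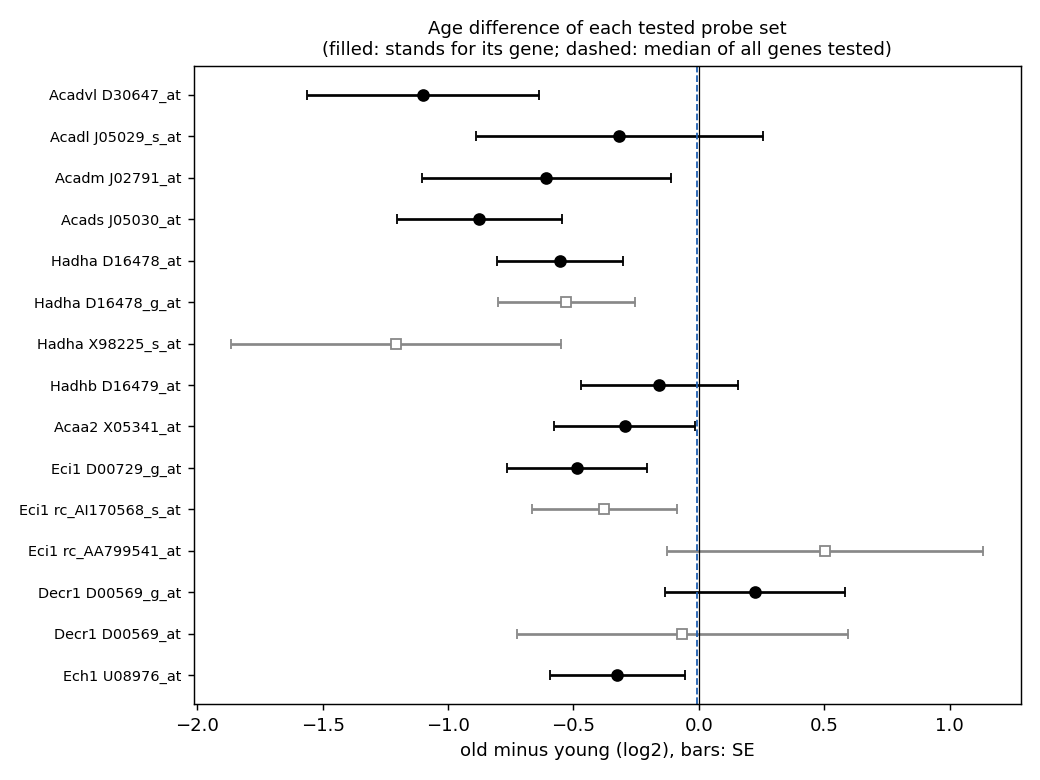
Old minus young difference on the log2 scale (x axis) of the 15 tested probe sets, ordered by step, with bars for the SE. Filled circles represent the gene and open squares are its other probe sets, and 13 of 15 lie below 0, while the dashed line marks the median of all genes at -0.01.

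Of the subunits of the trifunctional protein, Hadha had the larger difference, though the test of the pair, given with the ratios below, did not pass. Hadha (D16478_at) read 13.28, 13.07, 13.41, 12.94 and 13.05 in the young arrays and 12.41, 12.57 and 12.87 as the lowest, median and highest of old. Here the groups did not overlap, which held for 0.42% of all probe sets in this direction. Averages of 12.60 ± 0.16 and 13.15 ± 0.19 put old at 68.1% of young. The difference was -0.55 ± 0.25 (SE, limma unadjusted p = 0.0394, adjusted p = 0.639). It was -0.44 within the dim arrays, -0.43 within the bright ones and -0.50 without old replicates 3 and 4, and leaving out single arrays gave -0.61 to -0.49. The probe set D16478_g_at of the same transcript differed by -0.53 ± 0.27, with -0.34 in the dim arrays and -0.33 in the bright ones. The third, X98225_s_at, differed by -1.21 ± 0.66, was lowest on old replicates 3 and 4 at 7.997 and 6.32, and differed by -0.18 without them. It was 0.10 in the dim arrays and -0.73 in the bright ones, and -0.63 without old replicate 4 alone.

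Hadhb (D16479_at), the beta subunit with the thiolase activity, read 12.69, 11.77, 12.80, 12.26 and 12.43 in young. Old arrays ran from 11.78 through 11.996 to 13.10, so that the highest and nearly the lowest of all 11 arrays were old. Its difference was -0.16 ± 0.31 (SE, limma adjusted p = 0.921), smaller than its error, and ran from -0.33 without old replicate 2 to -0.055 without young replicate 3. Old replicates 1 and 2, the dim old arrays, stood at 12.70 and 13.10, and the other 4 at 12.13 or lower. The difference was 0.48 in the dim arrays and -0.36 in the bright ones.

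Acaa2 (X05341_at), the thiolase for shorter chains, read 13.51, 13.34, 14.14, 13.76 and 13.64 in young and 12.94, 13.44 and 13.88 as lowest, median and highest in old. The old average of 13.38 ± 0.37 was 81.5% of the young level, 13.68 ± 0.30, and 1 of 6 old arrays exceeded the latter. The difference of -0.30 ± 0.28 (SE, limma adjusted p = 0.828) was 0.08 in the dim arrays, -0.55 in the bright ones and -0.18 without young replicate 3.

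Among the auxiliary enzymes, Eci1 and Ech1 were lower in old and Decr1 was not. Eci1 encodes the isomerase that shifts a double bond into the position the cycle needs, and Ech1 an isomerase of dienoyl-CoA. Eci1 (D00729_g_at) read 12.33, 12.83, 12.57, 12.54 and 12.26 in young, and 11.61, 12.02 and 12.52 as lowest, median and highest in old. Old replicates 4 to 6, at 11.61 to 11.72, lay below every other array. The difference was -0.49 ± 0.28 (SE, limma adjusted p = 0.692), -0.07 in the dim arrays and -0.73 in the bright ones. A second bright Eci1 probe set, rc_AI170568_s_at, differed by -0.38 ± 0.29 (-0.023 in the dim arrays, -0.83 in the bright ones, and -0.24 without old replicate 3). The third, rc_AA799541_at, went the other way at 0.50 ± 0.63 (0.26 and 0.72), and single omissions took it from 0.25 to 1.04. The fourth, D00729_at, did not pass the filter.

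Ech1 (U08976_at) read 12.46, 12.40, 13.21, 12.88 and 12.84 in young and ran from 12.19 through 12.35 to 12.86 in old. The difference of -0.33 ± 0.27 (SE, limma adjusted p = 0.797) left 1 of 6 old arrays above the young mean. It was -0.18 in the dim arrays, -0.50 in the bright ones and -0.21 without young replicate 3.

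Decr1 encodes the dienoyl-CoA reductase, which uses NADPH to remove a double bond. Its brighter probe set, D00569_g_at, read 10.78, 9.62, 10.33, 9.78 and 11.07 in young and 9.97, 10.53 and 11.16 as lowest, median and highest in old. With 3 old arrays above the young mean and 3 below, the difference was 0.22 ± 0.36 (SE, limma adjusted p = 0.898). It was 0.56 in the dim arrays and 0.53 in the bright ones, and ran from 0.050 without young replicate 2 to 0.41 without young replicate 5. Its other probe set, D00569_at, differed by -0.07 ± 0.66, with old replicate 5 at 5.62 and the other old arrays at 8.86 or more. Without that array the difference of D00569_at was 0.55, and it was 0.55 in the dim and 0.25 in the bright arrays.

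Whether genes of different chain length or step differed unequally with age was tested on the log2 ratio of 2 genes within each array. Over 11 pairs, exact two-sided permutation tests over all 462 splits of the arrays gave unadjusted p-values of 0.0758 to 0.786, and 0 pairs passed after Benjamini-Hochberg adjustment. The smallest p came from Eci1 against Decr1, whose log2 ratio averaged 1.48 ± 0.15 across old arrays and 2.19 ± 0.83 across young ones. The difference was -0.71 ± 0.34 (SE, exact p = 0.0758, adjusted p = 0.532), and -0.46 without young replicate 2. Hadha against Hadhb differed by -0.40 ± 0.22 (SE, exact p = 0.145, adjusted p = 0.532), and 4 of 6 old arrays lay below every young one. This ratio differed by -0.91 in the dim arrays and by -0.069 in the bright ones, and by -0.26 without young replicate 2. Acadvl against Acads, the extremes of chain length, differed by -0.23 ± 0.46 (SE, exact p = 0.708, adjusted p = 0.779). Acadl against Acads differed by 0.56 ± 0.76 (exact p = 0.465), and Acadvl against Acadl by -0.78 ± 0.80 (exact p = 0.355), each with an adjusted p of 0.696. With standard errors of 0.46 to 0.80 for the dehydrogenase pairs, the arrays could not order the chain lengths.

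Across the arrays, levels of these enzymes went along with spike-in brightness as well as with age. The mean log2 intensity over the 10 genes averaged 11.57 ± 0.41 across old arrays and 12.02 ± 0.36 across young ones. The 4 bright old arrays lay at 11.24 to 11.37, below every other array, and each had 9 or 10 of the 10 genes below the young mean. The dim old arrays, replicates 1 and 2, lay at 11.83 and 12.30, inside the young range of 11.65 to 12.48. Old replicate 2 had 3 genes below the young mean. Young replicate 2, a dim array, also had 9 of 10 genes below the young mean, at 11.65. The cause of this pattern was not tested.

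**Figure D3:**
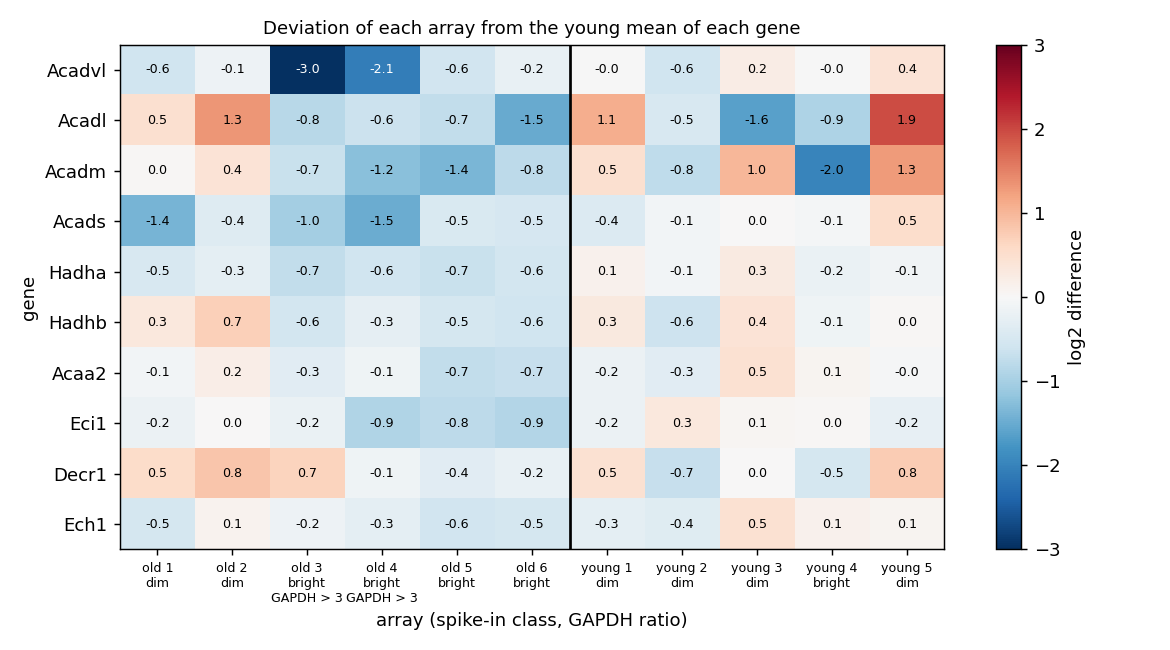
Log2 deviation of each array (columns) from the young mean of each gene (rows), with blue for lower and red for higher, and the spike-in class and high GAPDH ratios under the array names. Hadha, Acads and Acadvl are lower on all 6 old arrays, and Acadvl is lowest on the arrays with a GAPDH ratio over 3.

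With spike-in class as a block, 6 of the 10 genes remained below 0 and the median difference was -0.23. Within the dim arrays, 6 genes were lower with a median of -0.13, and among the bright arrays, with their single young sample, 7 were lower with a median of -0.46. The median over all probe sets tested was 0.07 in the dim arrays and -0.14 in the bright ones. Acadvl, Acads, Hadha, Eci1 and Ech1 were lower in both subsets, Decr1 was higher in both, and Acadm, Hadhb and Acaa2 changed sign between them. Acadl was above 0 in both. Leaving out old replicates 3 and 4 kept 9 of 10 genes lower, with a median of -0.38.

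**Figure D4:**
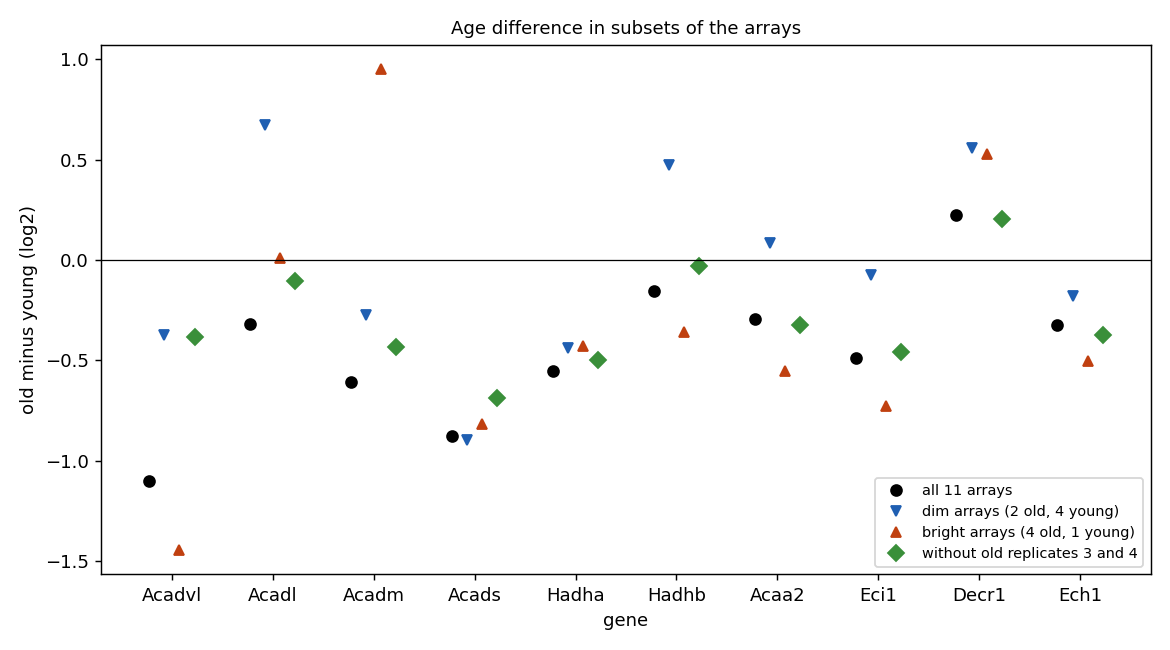
Old minus young difference on the log2 scale for each gene in all 11 arrays, in the dim arrays, in the bright arrays and without old replicates 3 and 4, with no error shown. Hadha and Acads keep similar values in all 4 sets, at -0.55 to -0.43 and -0.90 to -0.69, while Acadm runs from -0.61 to 0.95.

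The members varied together within the age groups. With group means removed, the Pearson correlation over the 11 arrays was above 0 for 40 of 45 gene pairs, with a median of 0.34, and the median over all pairs of genes tested was 0.00. All genes share the arrays and their scaling, so this describes these arrays only. The closest pairs were Acadm and Decr1 (0.82), Acaa2 and Ech1 (0.81), Hadhb and Acaa2 (0.81) and Hadha and Hadhb (0.79). Acads stood farthest from the rest, with a median of 0.08 against the other 9 genes. Probe sets of 1 gene correlated at 0.43 to 0.58 for Hadha and at 0.68 for Decr1. For Eci1 they ran from -0.56 to 0.45, so its 4 probe sets did not follow each other.

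The genes whose values were most like the mean of the 10, by Pearson correlation over the 11 arrays with group means removed, were Pygb, Pla2g5, Cyb5b, Polr2h and Pkp4. Pygb (M27726_at), the brain form of glycogen phosphorylase, had r = 0.95 and Spearman rho = 0.96, and r = 0.93 without the 2 arrays farthest from the median, old replicate 2 and young replicate 5. For Pla2g5, a secreted phospholipase, r was 0.93, for Cyb5b, an outer membrane cytochrome b5, it was 0.91, for Polr2h, an RNA polymerase subunit, 0.91, and for Pkp4, a plakophilin, 0.90. These 5 were the highest of all tested probe sets with 1 gene symbol outside the members, so their values are a description.

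In the list of other genes of mitochondrial beta-oxidation, all 8 tested of 18 listed were lower in old, with a median difference of -0.57, and 0 passed. One of the 8, Mecr, is an enoyl reductase of mitochondrial fatty acid synthesis, and without it, a choice made after seeing the data, 7 of 7 were lower with a median of -0.54. Only Mecr was taken out, and the 7 kept were not limited to enzymes of the cycle. They include Acot2 (-0.91), which had the largest difference of the 7. Mecr differed by -1.23 ± 0.61 (SE, limma adjusted p = 0.661), and every old array lay under the young mean. Its value was -0.81 in the dim arrays and 0.39 in the bright ones. Echs1, the short chain enoyl-CoA hydratase, differed by -0.59 ± 0.34 (-0.21 in the dim arrays, -0.63 in the bright ones, and -0.36 without old replicate 5). Etfdh, which passes electrons from the dehydrogenases to ubiquinone, differed by -0.79 ± 0.49 (-1.06 in the dim arrays, -0.35 in the bright ones, and -0.47 without old replicate 4). Ivd, a related dehydrogenase of leucine breakdown, differed by -0.51 ± 0.33 and was the only one of its list tested. It was -0.81 in the dim arrays, -0.74 in the bright ones and -0.32 without old replicate 2. Its other probe sets differed by -0.44 ± 0.30 and -1.30 ± 0.55.

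The carnitine shuttle and acyl-CoA synthesis list was split, with 5 of 10 tested genes lower, a median of -0.12 and 0 past the threshold. Cpt1b, the muscle carnitine transferase, differed by -0.57 ± 0.29, with -0.69 in the dim arrays and -0.66 in the bright ones. Acsl1, which activates long chain fatty acids, differed by -0.75 ± 0.37, with -0.28 in the dim arrays and -0.55 in the bright ones. Its other probe sets, at 0.35, 0.34 and -1.64, did not all go one way. Cpt1a, the liver form, was higher at 1.15 ± 0.59, with 1.15 in the dim arrays, 0.37 in the bright ones and 0.46 without young replicate 2. Peroxisomal beta-oxidation genes were lower in 5 of 8 tested, with a median of -0.12, and 0 passed. Among them Pex11a, a peroxisome division protein, differed by 1.17 ± 0.47 (SE, limma unadjusted p = 0.0211, adjusted p = 0.56), and its old and young arrays did not overlap, as held for 0.973% of all probe sets in either direction. It was 0.83 in the dim arrays and 1.52 in the bright ones. Acaa1b, a peroxisomal thiolase, differed by 0.69 ± 0.56 and changed sign between the dim (-0.38) and the bright arrays (0.73). Amacr, a racemase of branched fatty acids, differed by -0.61 ± 0.70 and changed sign too (0.36 in the dim arrays, -2.70 in the bright ones), and was -0.15 without young replicate 4.

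Of the regulators of fatty acid oxidation genes, 13 of 19 listed were on the array and 6 were tested. Of these 6, 4 were lower, with a median of -0.70, and 0 passed. Ppara, the fatty acid sensing receptor that drives many of these enzymes, averaged 7.17 ± 1.00 across old arrays and 8.32 ± 0.91 across young ones. The difference of -1.15 ± 0.60 (SE, limma adjusted p = 0.662) was -0.86 in the dim arrays and -1.74 in the bright ones. Ppard, a related receptor, differed by -0.87 ± 0.45, with its other probe sets at -0.41 and -1.04. It was -0.87 in the dim arrays, -1.08 in the bright ones and -0.54 without old replicate 4. Rxrg, a partner receptor, differed by -0.89 ± 0.43, with its other probe sets at -0.23 and -1.73. It was -0.72 in the dim arrays, -0.63 in the bright ones and -0.46 without old replicate 6. Ncoa1, a coactivator, was higher at 0.66 ± 0.65 and changed sign between the dim (-0.088) and the bright arrays (1.52).

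Markers of other cell types are given as summed intensities over the tested genes of each list. Red cell markers (2 of 2 higher in old) summed to 13116 to 177090 in old and 1211 to 72936 in young. Atrial markers (3 of 3 higher) summed to 9876 to 97376 in old and 3778 to 35863 in young. Endothelial markers (4 of 4 lower) summed to 469 to 2437 in old and 1699 to 2431 in young. Fibroblast markers (5 of 8 higher) summed to 25825 to 66968 in old and 29275 to 79297 in young, and smooth muscle markers (4 of 5 higher) to 6719 to 20682 and 8576 to 15893. Fat cell markers (6 of 9 higher) summed to 9734 to 16438 in old and 10852 to 18292 in young. Such sums follow the brightest genes of a list. Des, the brightest smooth muscle marker, differed by -0.86, and the other 4 by 0.25 to 1.12. Lpl and Lep, the brightest fat cell markers, differed by -0.62 and -0.39, Lipe by -1.39, and the other 6 by 0.23 to 1.69. Macrophage markers (2 of 4 higher) reached 40284 on 1 old array and 7339 at most in young, from 4912 and 5415. Liver markers (3 of 5 higher) summed to 1349 to 2692 and 925 to 2299, and cardiac muscle markers (4 of 8 higher) to 349504 to 558901 and 320296 to 550238. In these lists 0 genes passed the test, none of the markers was listed at 0, and Vwf, Postn, Pparg, Csf1r and Itgam were under the filter. The part of these cell types in the enzyme values was not tested.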

How the data were processed

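Total RNA of 11 ventricle samples was measured on 1-colour arrays. The deposited table holds 1 linear intensity per probe set and array, between 0.2 and 307756. How the authors made these intensity values (software, background correction) is a point not given in the sources used here. A trimmed mean (2% off each end) was 500.5 to 501.0 on every array, so the authors had scaled the arrays to a common level, and changes are relative to other transcripts. The scaling was kept.

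Values under the 20th percentile (47.4) were set to it, which serves as the floor and understates changes of dim genes. All values were then put on the log2 scale. The 59 control probe sets and those with a mean log2 value under the 40th percentile were left out, leaving 5244. The age groups were compared with limma 3.58.1 (R 4.3.3) by lmFit and eBayes with a mean-variance trend, with Benjamini-Hochberg adjustment over all 5244 and a threshold of 0.05. SE are limma's, except for ratios of 2 genes, where they are pooled over arrays. The probe set with the highest mean represents a gene that has several. Precision is limited by how many arrays there are, and the median SE over all probe sets was 0.56. The fit and the permutation test were tested on simulated data. The fit found 8% of simulated 2-fold changes, 52.4% of 4-fold and 78.8% of 8-fold ones.

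Symbols came from the platform annotation, and all 10 members kept theirs when matched by gene number to RefSeq. Promoter windows came from RefSeq (GRCr8). The members, lists and tests were chosen with earlier results of these data known. Outside the members, the 3 tested genes with the smallest p of each list and the one with the largest difference against its majority are named, and the 5 most alike genes. Other genes were named for their role as markers. Alternatives were other floors, filters, scalings, variance models and weights, blocks for replicate number and spike-in brightness, subsets of arrays and leaving out each array. Spike-in class was set at the widest gap, 1.76, between neighbouring arrays in mean log2 signal of 9 bacterial probe sets.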

Additional observations from a re-analysis of the deposited data

Results flagged for a closer look

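Over 30 groups of arrays (15 probe sets in 2 age groups), 1 array stood apart, where chance gives about 5% of groups. It was old replicate 5 for D00569_at of Decr1, with a log2 intensity of 5.62. The nearest old array read 8.86, and the gap made up 0.78 of the range of the group, above Dixon's critical value of 0.625 for 6 arrays. The other Decr1 probe set read 9.97 on that array, the lowest old value too, with no such gap.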

How the results depend on the processing

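The member probe sets passing an adjusted p of 0.05 stayed at 0 under every alternative run. Over all probe sets, limma called 0, and 0 under most alternatives, but 2 without old replicate 5, 1 in the dim arrays alone and 5 in the bright arrays alone (394 had an unadjusted p under 0.05 with all arrays), and leaving out single arrays gave 0 to 2. The median difference of the 10 genes, -0.41, stayed below 0 throughout, at -0.60 to -0.30 when single arrays were left out, -0.15 with spike-in signal as a covariate and -0.20 with array weights. The replicate numbers do not pair the samples: correlations of deviations ran from -0.25 to 0.25, and 2 of 10 arrays correlated best with their own number. With the replicate block, which drops old replicate 6, 0 probe sets passed and the median was -0.35. Quantile normalization and median centring moved the median of all probe sets by -0.10 and -0.12 and that of the 10 genes to -0.32 and -0.52, and dropping the filter moved the former by 0.12. 

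Signs turned as follows, and the cause was not tested. With spike-in signal as a covariate, Acadl was at 0.58, Acadm at 0.15, Hadhb at 0.30 and Decr1 D00569_at at 0.34. With spike-in class as a block they were at 0.42, 0.19, 0.16 and 0.44. In the dim arrays Acadl was at 0.67, Hadhb at 0.48, Acaa2 at 0.083, Hadha X98225_s_at at 0.10 and D00569_at at 0.55, and in the bright arrays Acadl at 0.0081, Acadm at 0.95 and D00569_at at 0.25. Hadhb was at 0.014 after quantile normalization and 0.046 with array weights. D00569_at was at 0.052 with a floor at the 30th percentile and at 0.55, 0.10 and 0.27 without old replicate 5, young replicate 1 or young replicate 5, and Acadl at 0.17 without the last (its other end was -0.72, without young replicate 3). Among ratios, Acadvl to Acads turned to 0.52 in the dim arrays, 0.30 without old replicates 3 and 4 and 0.13 without old replicate 3 (the other end of single omissions was -0.43), and Acadvl to Acadm to 0.050 without both. Acadl to Acadm turned to -0.94 in the bright arrays and -0.36 without young replicate 3, Acadm to Acads to -0.21 without young replicate 4 (other end 0.51), and Eci1 to Ech1 to 0.11 in the dim arrays and 0.0093 without young replicate 2 (other end -0.26). The 0 pairs passing stayed at 0 in every set run, and the dim and bright subsets are too small for an exact test to pass.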
